A study of Mus musculus with 3 samples.

Results

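Ribosome-associated RNA of cardiac endothelial cells was read here for the oxygen-sensing pathway that acts through the hypoxia-inducible factors (HIFs). The genes are the HIF alpha subunits Hif1a, Epas1 and Hif3a, their dimer partner Arnt, the prolyl hydroxylases Egln1, Egln2 and Egln3, the asparaginyl hydroxylase Hif1an, the substrate receptor Vhl and the mitophagy receptor Bnip3. They were chosen by name and not by their values, though with earlier results of these data known. All 10 of the 10 were listed in the deposited table of 17583 genes. The 3 libraries came from 3 Cdh5-CreERT2;Rpl22tm1.1Psam mice (EC-RiboTag) on a C57BL/6 background and form a single group. In these mice, tamoxifen-induced Cre is driven by the Cdh5 promoter, which is active in endothelial cells, and makes Rpl22 encode a ribosomal protein that carries a hemagglutinin tag. Tagged ribosomes were pulled down from homogenized hearts, and single-end reads of 72 bases were taken from the RNA they held. The labels place the hearts at day 7 after coronary ligation. By contrast, the study's methods for the RiboTag samples and the legend of its EC-RiboTag sequencing figure name no infarction. The Rz of the sample titles is not explained in the labels. Elsewhere the study describes EC-RiboTag RNA from the remote (RZ), border and infarct zones of hearts at day 7 after infarction, measured by qRT-PCR, which matches the labelled day, but nothing ties these 3 libraries to a zone, so whether whole hearts or a remote zone were sequenced could not be settled. The age of these mice is not given in the labels. With a single condition and no library of the input or of untagged hearts analysed here, the values are levels within the pull-down, and neither a response to infarction nor an enrichment over the heart could be measured from them. The study itself compared pull-down with input by qRT-PCR for markers of endothelial cells, cardiomyocytes, leukocytes and fibroblasts, under the heading of endothelial RNA enrichment.

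Cells sense oxygen through enzymes that use it as a substrate. In oxygenated cells the EGLN enzymes hydroxylate prolines of HIF alpha subunits, VHL binds the hydroxylated protein and hands it to a ubiquitin ligase for degradation, and HIF1AN hydroxylates an asparagine that otherwise contacts the coactivators EP300 and CREBBP. When oxygen falls, the alpha subunit is stable, pairs with ARNT and switches on genes for glycolysis, angiogenesis and mitophagy, among them Egln3, Vegfa and Bnip3. EPAS1, also called HIF-2α, was first described as the HIF subunit of endothelium. Much of this control acts on protein, which ribosome-associated RNA does not show.

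The sums of normalized counts were 7149102, 7158585 and 7268785 in mice 1, 2 and 3. From the whole numbers that rounding left empty or doubled, 1 read was worth 0.977, 1.06 and 0.961 normalized counts, which corresponds to between 6754338 and 7566134 reads a library. Pairs of libraries differed by 5.48 to 8.31 times the mean squared deviation of counting alone. The labels call the libraries biological replicates. All 10 endothelial markers lay above the 90th percentile of levels per kb, with a median of 679.5 ± 24.1 normalized counts per kb (SD, n = 3 mice). Cardiomyocyte markers were also abundant, with a median of 565 ± 18.9 per kb, whereas fibroblast markers had a median of 101 ± 20.8, mural markers 33.1 ± 8.02, leukocyte markers 23.0 ± 5.49, erythroid markers 74.2 ± 8.03 and adipocyte markers 1.82 ± 1.76 (SD, n = 3). The authors' removal of duplicate reads may understate levels as high as those of the endothelial and cardiomyocyte markers. These medians therefore do not give the share of each cell type. Of the defining markers of other cells, Cd3e and Lep were not listed, and Adipoq had normalized counts of 0, 5 and 5. Since cardiomyocytes, fibroblasts and mural cells also use the HIF pathway, how much of any value below comes from endothelial cells was not tested, and in such bulk samples fewer cells of a type and less RNA per cell cannot be told apart. Mouse 1 stood apart from the other mice. The library held 1080 normalized counts for the Y-linked gene Ddx3y and 4 for the X-inactivation transcript Xist, against 3 and 1 for Ddx3y and 618 and 869 for Xist in mice 2 and 3. Mouse 1 had the lowest summed markers of each other cell type and the highest of endothelial cells (21989 normalized counts against 21623 and 21444), with 3047 normalized counts against 3970 and 4186 for the 8 of fibroblasts, 1269 against 1711 and 1766 for the 7 of mural cells, 448 against 679 and 684 for the 7 of leukocytes, 20679 against 21339 and 24237 for the 10 of cardiomyocytes, 331 against 334 and 369 for the 5 of erythroid cells, and 4 against 12 and 32 for the 3 of adipocytes. Gene by gene, the cardiomyocyte markers did not follow their sum. Mouse 1 was the highest for 6 of the 10 and the lowest for 4, with a median log2 ratio to the mean of mice 2 and 3 of 0.13. Of the erythroid markers, Hbb-bs, Hba-a1 and Hba-a2 were highest in mouse 1, whereas Hbb-bt and Alas2 were lowest there.

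Epas1 (ENSMUSG00000024140; GRCm39 chromosome 17, 87061128 to 87140838, plus strand, 16 exons in the canonical transcript) was the most abundant gene of the pathway by either scale. Its normalized counts were 3609, 3448 and 3623 in mice 1, 2 and 3, a mean of 3560 ± 97.2 (SD, n = 3). The 3 mice lay close together, with a coefficient of variation (CV) of 2.73%, against 1.67% from counting alone. By this mean, not corrected for length, Epas1 ranked 21 of 17583 genes. To compare genes, values were divided by the canonical transcript length. On this scale Epas1 had 654, 625 and 656 normalized counts per kb (645 ± 17.6), and 197 of the 17475 genes with a known length were higher. Duplicate removal in the authors' processing keeps a limited number of single-end reads at any start position. Epas1, at 0.645 normalized counts per base, lay near the 99th percentile of all genes, 0.664. Its level and that of other genes in this range may therefore be understated, and their spread between mice may be narrowed.

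Hif1a (ENSMUSG00000021109; chromosome 12, 73948149 to 73994304, plus strand, 15 exons), the subunit found in most cell types, was lower and more variable. The mice had normalized counts of 1054, 1405 and 1235, a mean of 1231 ± 176, and its levels per kb were 154, 205 and 180.3 (179.8 ± 25.6; SD, n = 3). Mouse 1 was the lowest and mouse 2 the highest. Within each mouse, Epas1 exceeded Hif1a per kb, by a log2 ratio of 2.09, 1.61 and 1.86 (1.85 ± 0.24, a 3.61-fold difference). No value of Hif1a reached the lowest value of Epas1. With 3 mice the smallest two-sided p of an exact sign-flip test is 0.25, which is what this ratio gave (0.297 after Benjamini-Hochberg adjustment over the 19 pairs of genes compared), so no ratio can pass a threshold of 0.05 in this test. The size of the difference depended on the length. Of the 6849 bases of the canonical Hif1a transcript, 4832 lay within the gene span that the deposited table gives, and the log2 ratio of Epas1 to Hif1a was 1.35 when only those bases were counted.

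Hif3a (ENSMUSG00000004328; chromosome 7, 16765432 to 16796352, minus strand, 15 exons), whose splice forms include inhibitors of the other alpha subunits, was near the lower end of the table. It had normalized counts of 19, 14 and 35 (22.7 ± 11.0; SD, n = 3), which rest on about 19.5, 13.2 and 36.4 reads. Mouse 3 was the highest and mouse 2 the lowest, and the CV of 48.4% compares with 20.9% from counting alone. Per kb its level was 3.54 ± 1.71, at the 12.1 percentile of all genes. The log2 ratio per kb, with a pseudocount of 0.5 normalized counts, was 7.58 ± 0.63 for Epas1 over Hif3a and 5.73 ± 0.74 for Hif1a over Hif3a (SD, n = 3; both in the same direction in 3 of 3 mice, exact sign-flip p = 0.25). Of the summed level per kb of the 3 alpha subunits, Epas1 held 77.9% ± 2.79, Hif1a 21.7% ± 2.85 and Hif3a 0.426% ± 0.200 (SD, n = 3). The share of Epas1 was 80.6% in mouse 1, 75.1% in mouse 2 and 77.9% in mouse 3. With the bases within the deposited span the mean shares were 71.5% for Epas1 and 28.1% for Hif1a.

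Arnt (ENSMUSG00000015522; chromosome 3, 95341699 to 95404551, plus strand, 22 exons), the partner that every HIF alpha subunit needs, had normalized counts of 980, 903 and 1046 (976 ± 71.6), or 208, 192 and 222 per kb (207 ± 15.2; SD, n = 3). Mouse 3 was the highest and mouse 2 the lowest, and the CV of 7.33% was above the 3.19% of counting alone. Epas1 exceeded Arnt per kb by a log2 ratio of 1.64 ± 0.07 in 3 of 3 mice (exact sign-flip p = 0.25), a 3.11-fold difference with little spread. The limit that duplicate removal sets on Epas1 applies to this spread too. Hif1a and Arnt could not be ordered. Their log2 ratio was -0.44, 0.10 and -0.30 (-0.21 ± 0.28, exact sign-flip p = 0.5), and it became 0.18 with the bases within the deposited span.

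**Figure D1:**
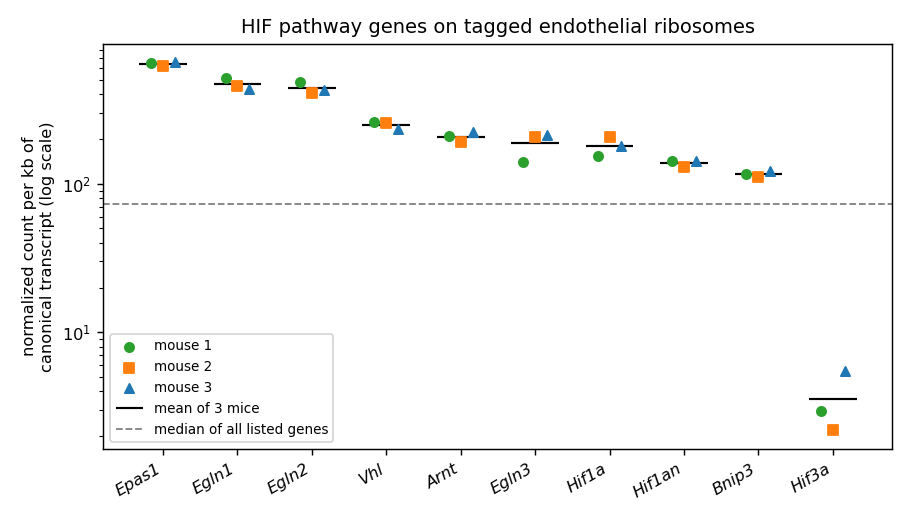
Level of each HIF pathway gene in the 3 mice, as normalized counts per kb of canonical transcript on a log axis, ordered from the highest mean to the lowest. Points are mice, the short line is the mean of 3 mice, and the dashed line is the median of all genes with a known length (73.0 per kb), above which every gene but Hif3a lies.

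The prolyl hydroxylase genes were led by Egln1 and Egln2. Egln1 (ENSMUSG00000031987; chromosome 8, 125635326 to 125676063, minus strand, 5 exons) encodes PHD2, the main enzyme that sets HIF-1α stability in oxygenated cells. Its normalized counts were 2277, 2016 and 1919 (2071 ± 185), rank 207 by mean, and its levels per kb were 516, 457 and 435 (469 ± 41.9; SD, n = 3), highest in mouse 1. Egln2 (ENSMUSG00000058709; chromosome 7, 26858083 to 26866227, minus strand, 6 exons), which encodes PHD1, had normalized counts of 1025, 870 and 910 (935 ± 80.5), or 481, 408 and 427 per kb (439 ± 37.7), also highest in mouse 1. The ranges of Egln1 and Egln2 overlapped per kb. Their log2 ratio was 0.10, 0.16 and 0.03 (0.10 ± 0.07), a 1.07-fold difference that is smaller than the SD of either gene, although it had the same direction in 3 of 3 mice (exact sign-flip p = 0.25).

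Egln3 (ENSMUSG00000035105; chromosome 12, 54225767 to 54250646, minus strand, 5 exons) encodes PHD3, the family member known to be strongly induced by HIF itself. Its normalized counts were 379, 551 and 576 (502 ± 107), and its levels per kb were 141, 205 and 214 (187 ± 39.9; SD, n = 3). Mouse 1 lay well below mice 2 and 3, which were close to each other. Egln1 exceeded Egln3 per kb by a log2 ratio of 1.87 in mouse 1, 1.16 in mouse 2 and 1.02 in mouse 3 (1.35 ± 0.46, 2.55-fold, exact sign-flip p = 0.25). Egln2 exceeded Egln3 by 1.25 ± 0.45 (2.38-fold, exact sign-flip p = 0.25). Of the summed level per kb of the 3 hydroxylases, Egln1 held 42.8% ± 2.47, Egln2 40.0% ± 2.08 and Egln3 17.2% ± 4.14 (SD, n = 3), and the share of Egln3 was 12.4%, 19.2% and 19.9% in mice 1, 2 and 3. The place of Egln2 depended on its length. The annotation holds 33 transcripts of Egln2 whose exons together span 7795 bases, against 2132 in the canonical one, while Egln3 has a single transcript of 2689 bases. Divided by all annotated exons, Egln2 fell below Egln3 (log2 ratio -0.62), and the mean shares became 43.0%, 22.3% and 34.6% for Egln1, Egln2 and Egln3.

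Hif1an (ENSMUSG00000036450; chromosome 19, 44551289 to 44564713, plus strand, 8 exons), which encodes the asparaginyl hydroxylase FIH, had normalized counts of 883, 800 and 887 (857 ± 49.1), or 142, 129 and 143 per kb (138 ± 7.91; SD, n = 3). It was lower per kb than Egln1 in 3 of 3 mice, by a log2 ratio of -1.76 ± 0.14 (exact sign-flip p = 0.25). Vhl (ENSMUSG00000033933; chromosome 6, 113600920 to 113608594, plus strand, 3 exons), the tumour suppressor that recognizes hydroxylated HIF alpha, had normalized counts of 723, 721 and 657 (700.3 ± 37.5), or 258, 258 and 235 per kb (250.4 ± 13.4). Mouse 3 was the lowest, and the CV of 5.36% compares with 3.78% from counting alone. The log2 ratio of Vhl to Egln1 per kb was -0.90 ± 0.09 (3 of 3 mice, exact sign-flip p = 0.25). The ranges of Vhl and Hif1an did not overlap per kb.

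Vhl works in a ubiquitin ligase with elongin B and C (Elob and Eloc), the scaffold Cul2 and the ring protein Rbx1. All 4 partners were listed, and their median percentile per kb was 90.1. None of the 4 was variable between the mice by the rule given below, beside 8.00% of all genes with a mean of at least 200. Elob had 429 ± 14.1 normalized counts per kb, Rbx1 400.4 ± 30.5, Eloc 293 ± 16.5 and Cul2 111 ± 8.66 (SD, n = 3). Cul2, the scaffold, was thus the only one of the 4 with a level below that of Vhl. For Elob, 27.7% of the read-length windows occur again, base for base, at another place in the genome, so its level may be understated.

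The coactivators that HIF1AN keeps from binding, and the CITED proteins that compete for them, had middle levels, with a median percentile per kb of 55.2 for the 4 genes. Ep300 had normalized counts of 945, 821 and 1261, and Crebbp had 916, 927 and 1074. Per kb their means were 95.6 ± 21.5 and 89.9 ± 8.15 (SD, n = 3), which overlap. Cited2, a competitor that HIF induces, had 443, 319 and 508 (180.2 ± 40.9 per kb), and Cited4 had 76, 59 and 61 (52.3 ± 7.44 per kb). Ep300 and Cited2 were both highest in mouse 3 and lowest in mouse 2, and both were among the genes called variable.

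Arnt was read beside a mixed list of its paralogs, such as Arnt2, and of related proteins, such as Ahr, some of which pair with ARNT. Of 11 symbols searched, 7 were listed, with a median percentile per kb of 15.5. Arntl was called variable, 1 of the 2 with a mean of at least 200, beside 8.00% of all genes of that level. Sim1 and Npas1 were not listed, and Bmal1 and Bmal2 appeared under their older names Arntl and Arntl2. Ahr, the dioxin receptor that shares ARNT with the HIFs, had normalized counts of 743, 542 and 639 (115 ± 18.1 per kb; SD, n = 3). Arntl, the clock gene also named BMAL1, had 201, 178 and 290 (52.3 ± 13.9 per kb), and Arntl2 had 79, 89 and 80 (28.1 ± 1.87 per kb). Arnt2, the neuronal paralog, had 4, 5 and 17, and Npas3 had 0, 3 and 6. Arnt itself, at 207 per kb, was higher than each of these genes in every mouse.

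Other enzymes that need oxygen were present at moderate levels, with a median percentile per kb of 51.0 over a list of 5 that includes Hif1an. Ado, a cysteine dioxygenase that acts on an oxygen-sensitive degradation signal, had normalized counts of 714, 783 and 720 (162 ± 8.39 per kb; SD, n = 3). The histone demethylases Kdm6a and Kdm5a had 76.7 ± 20.5 and 68.5 ± 1.45 per kb, and P4htm, a transmembrane prolyl hydroxylase, had 44.7 ± 7.15 per kb. Kdm6a, with 370, 511 and 642, was called variable, 1 of 4 with a mean of at least 200, beside 8.00% of all genes of that level. It was lowest in mouse 1 and highest in mouse 3, with mouse 2 between them. Mouse 1 was also the mouse that differed in Xist and Ddx3y, and the part of this in the level of Kdm6a was not tested.

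Bnip3 (ENSMUSG00000078566; chromosome 7, 138492565 to 138511248, minus strand, 6 exons) encodes an outer mitochondrial membrane protein that marks mitochondria for removal and is induced by HIF. Its normalized counts were 426, 406 and 444 (425 ± 19.0; SD, n = 3), or 117, 111 and 122 per kb (117 ± 5.21). The CV of 4.47% was below the 4.84% that counting alone gives, so the 3 mice could not be told apart. Its paralog Bnip3l (NIX) had normalized counts of 1229, 1075 and 1008, or 340.1 ± 34.9 per kb (SD, n = 3), and the log2 ratio of Bnip3 to Bnip3l was -1.70, -1.57 and -1.35 (-1.54 ± 0.18, exact sign-flip p = 0.25). This ratio depended on which bases a read can be counted on. Of the canonical Bnip3 transcript, 1769 of 3647 bases lay within the deposited gene span. In addition, 47.1% of its 72-base windows had an exact copy elsewhere in the genome, and reads from such windows map to several places and were removed by the authors. Divided by the 939 windows within the span that have no copy, the level of Bnip3 became 0.453 per window, that of Bnip3l 0.481, and the log2 ratio -0.08 (exact sign-flip p = 0.5), with the mice no longer on the same side of 0. With the bases within the span and no account of copies it was -0.50.

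The copies of Bnip3 lie on chromosome 14, where its spliced coding sequence stands without introns at 44502488 to 44503238 (within the long noncoding RNA Gm32857) and at 44834111 to 44834861 (within Gm5624). The first differs from Bnip3 at 8 of 561 coding bases (98.6% identity) and the other at 6 (98.9%). Of the 203 coding windows of read length that lie in a single exon, 132 (65.0%) have an exact copy. A read from the first pair of sites below could have come from either gene, whereas the second pair, shifted by a few bases, differs at the bases in capitals. The sequences are from GRCm39, written 5′ to 3′ on the strand of the gene.
Bnip3, chr7:138500477-138500548, minus strand: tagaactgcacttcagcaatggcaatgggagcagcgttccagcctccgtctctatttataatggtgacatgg
copy, chr14:44502539-44502610, plus strand: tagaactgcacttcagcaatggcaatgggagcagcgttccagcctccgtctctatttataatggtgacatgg
Bnip3, chr7:138500486-138500557, minus strand: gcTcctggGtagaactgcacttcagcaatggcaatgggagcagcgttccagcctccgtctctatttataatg
copy, chr14:44502530-44502601, plus strand: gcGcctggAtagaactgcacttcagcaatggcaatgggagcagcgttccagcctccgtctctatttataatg

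Among 7 mitophagy receptors and regulators, which include Bnip3l, all were listed. Of these, 6 had a mean of at least 200, and none was called variable, beside 8.00% of all genes of that level. The median percentile per kb of the 7 was 87.3. The receptor Fkbp8 had 610.4 ± 23.0 normalized counts per kb and the inner membrane receptor Phb2 606 ± 34.4 (SD, n = 3), the highest of the list. Bcl2l13 had 151 ± 16.0. Fkbp8, Phb2 and Bnip3l were higher than Bnip3 in every mouse on this scale.

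**Figure D2:**
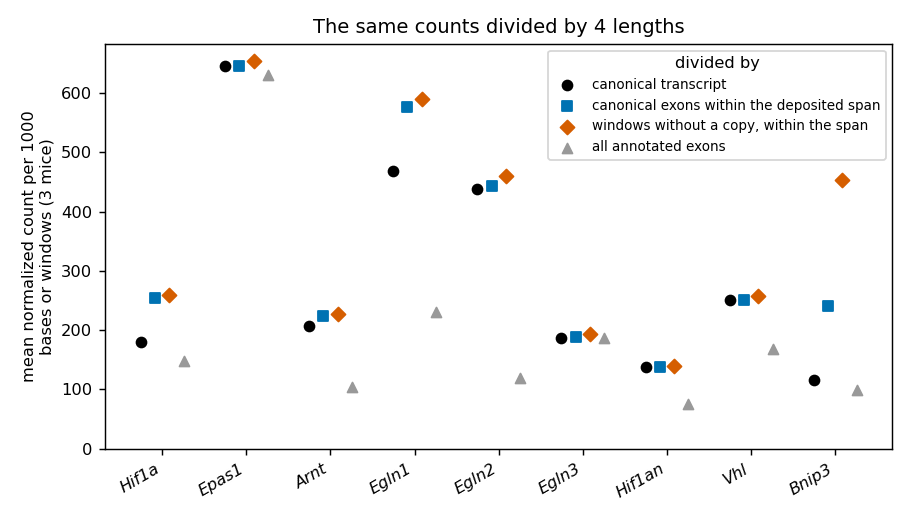
Mean level over 3 mice of 9 HIF pathway genes after division by 4 different lengths, as normalized counts per 1000 bases or windows on a linear axis from 0; Hif3a, at 3.54 per kb, is not drawn. Epas1 stays highest with each length, Bnip3 moves from 117 with the canonical transcript to just below Egln2 with windows without a copy, and Egln2 drops from 439 to 119.9 with all annotated exons.

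In order of level per kb the genes were Epas1, Egln1, Egln2, Vhl, Arnt, Egln3, Hif1a, Hif1an, Bnip3 and Hif3a. This order comes from the means of the same 3 mice, so it set the direction of the mean difference between neighbours. The p-values of neighbours are therefore no test of the order. Among neighbours in this order, Egln1 and Egln2 (log2 ratio 0.10), Arnt and Egln3 (0.17 ± 0.34, exact sign-flip p = 0.75) and Egln3 and Hif1a (0.04 ± 0.19, exact sign-flip p = 1) differed in mean level by no more than the larger SD of the pair. Within a mouse, Egln1 was above Egln2 in 3 of 3 mice, whereas the other 2 ratios changed sign between mice. The other neighbours differed by more than the larger SD of the pair and in the same direction in 3 of 3 mice, by log2 ratios of 0.46 ± 0.13 for Epas1 over Egln1, 0.81 ± 0.13 for Egln2 over Vhl, 0.27 ± 0.18 for Vhl over Arnt, 0.37 ± 0.28 for Hif1a over Hif1an, 0.24 ± 0.04 for Hif1an over Bnip3 and 5.11 ± 0.60 for Bnip3 over Hif3a (SD, n = 3; exact sign-flip p = 0.25 for each). Epas1 first, Egln1 next and Hif3a last held for each of the 5 lengths tried, including none, whereas the places between them did not. Compared with all genes by canonical length, 9 of the 10 lay above the median level per kb, 5 above the 75th percentile and 3 (Epas1, Egln1 and Egln2) above the 90th. These places depended on the length and on the genes ranked, as given in the closing section. Their median was 197 normalized counts per kb, against 73.0 for the 17475 genes with a length. The percentiles were 98.9 for Epas1, 96.1 for Egln1, 95.0 for Egln2, 82.5 for Vhl, 77.2 for Arnt, 74.3 for Egln3, 73.2 for Hif1a, 65.5 for Hif1an and 61.0 for Bnip3.

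The spread between mice was read with a rule that calls a gene variable when its mean is at least 200 normalized counts and its CV over 20%. Across the table, 749 of 9358 genes with such a mean were called (8.00%). Of the 10 HIF pathway genes, 9 had a mean of at least 200, and 1 of these, Egln3, was called, with a CV of 21.4% against 4.47% from counting alone. Hif1a was next, with a CV of 14.3%. The median CV of the 9 genes, 7.33%, was close to the 7.37% of all 9358 genes. Both Egln3 and Hif1a were lower in mouse 1 than in either other mouse, as were 31.8% of the 9358 genes, and Egln1, Egln2 and Vhl were higher in mouse 1, as were 37.6%. On the log2 scale, mouse 1 lay at -0.57 relative to the mean of mice 2 and 3 for Egln3, -0.32 for Hif1a, 0.21 for Egln1 and 0.20 for Egln2, with a median of 0.01 over all genes of that level. Without mouse 1 none of the 9 was called, since Egln3 then had 551 and 576. Without mouse 3, Hif1a was called together with Egln3. Mouse 1 also differed in Xist and Ddx3y and had the lowest sums of fibroblast, mural and leukocyte markers, and the part of these in the level of Egln3 was not tested.

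**Figure D3:**
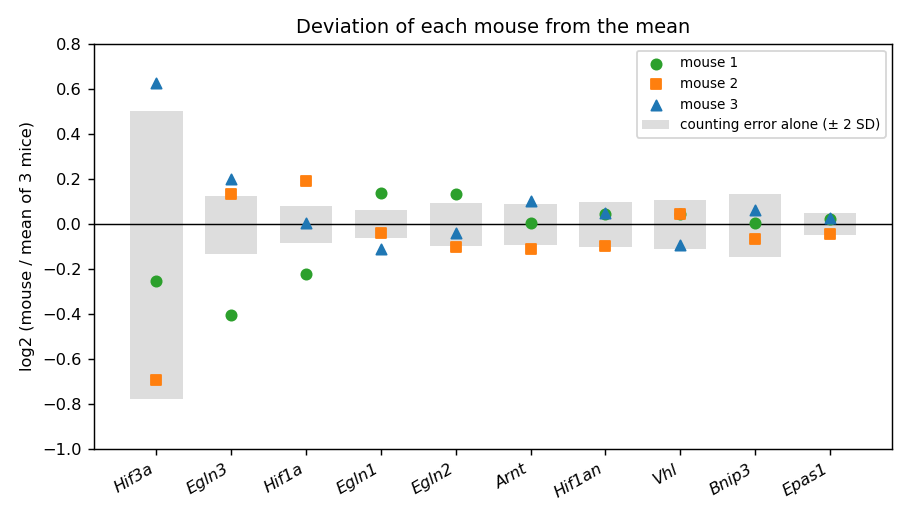
Deviation of each mouse from the mean of 3 mice, as log2 of the ratio, for the 10 HIF pathway genes ordered from the highest CV to the lowest. The grey bars show 2 SDs of counting error around the mean. Mouse 1 lies far below the bar for Egln3 and Hif1a and above it for Egln1 and Egln2, while the mice stay within the bar for Epas1, Hif1an, Vhl and Bnip3.

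Some genes followed the levels of a HIF pathway gene closely over the 3 mice. The likeness was measured as the distance between log2 levels per kb over the 3 mice, among 9234 protein-coding genes whose mean was 200 or more. The nearest to Epas1 were Timp3, an inhibitor of metalloproteinases, at a distance of 0.04, the growth factor gene Pdgfb at 0.07 and Podxl, a sialomucin of the endothelial surface, at 0.08. The nearest to Hif1a were Gramd1a (0.02), Cabp1 (0.04) and Ndrg4 (0.07). Egln1 was matched by the transcription factor gene Jun (0.02), the ephrin gene Efnb1 (0.03) and the carbonic anhydrase gene Car7 (0.05). With 3 mice from a single condition, such matches describe similar levels only.

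Genes known as HIF targets spanned almost the whole range of the table. Of 39 searched, 38 were listed and Epo, the erythropoietin gene, was not. Their median percentile per kb was 66.8, with 31 of 38 above the 50th percentile, 18 above the 75th and 13 above the 90th. The highest were Aldoa (789.8 ± 29.9 normalized counts per kb), a glycolytic aldolase, Flt1 (713 ± 56.9), the VEGF receptor 1 gene, and Ldha (669.8 ± 44.6), lactate dehydrogenase A (SD, n = 3). Flt1 had normalized counts of 5352, 4588 and 4816. Vegfa, named here after its values were seen, had normalized counts of 1222, 1553 and 1143 (377 ± 62.8 per kb), and was highest in mouse 2. The lowest were Pfkfb4, a regulator of glycolysis, with 64, 60 and 53, and Car9, the carbonic anhydrase often used as a marker of hypoxic tumours, with 4, 8 and 4. For the glycolytic genes Pgk1 and Eno1, 91.6% and 59.3% of the read-length windows have an exact copy elsewhere, and reads from these were removed as multi-mapping, so their levels may be understated.

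**Figure D4:**
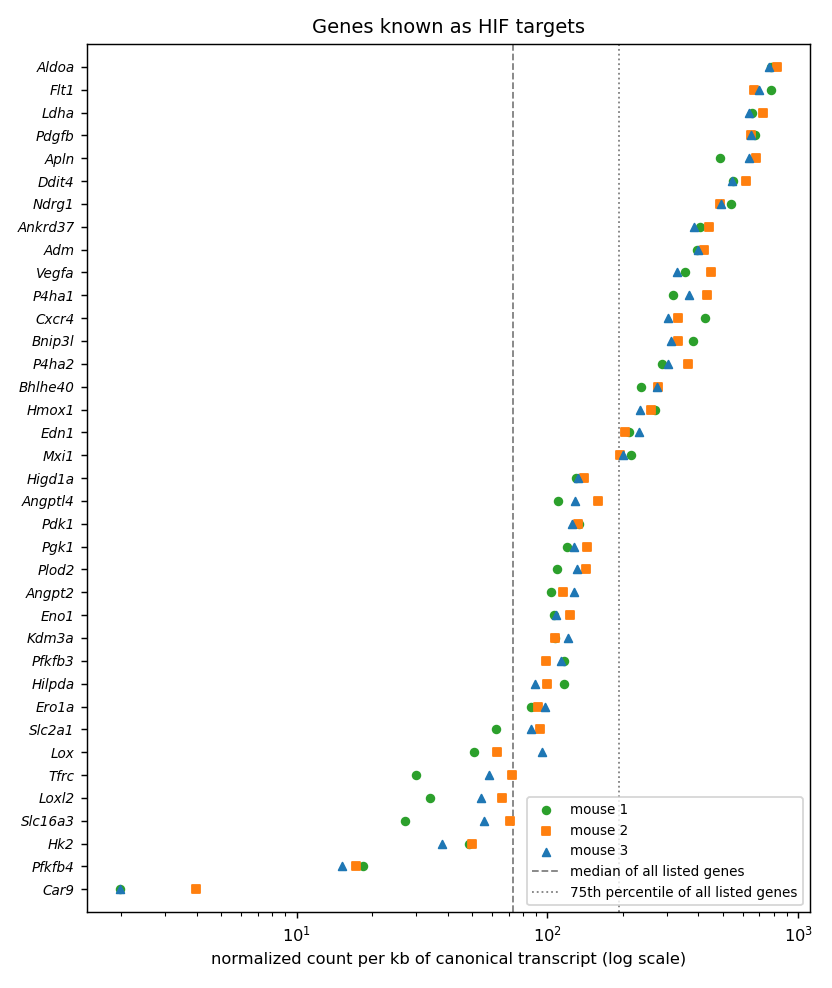
Level of 37 of the 38 listed HIF target genes in each of the 3 mice, as normalized counts per kb of canonical transcript on a log axis, from the highest mean at the top to the lowest. The dashed and dotted lines mark the median (73.0) and the 75th percentile (192) of all genes with a length; 18 genes have a mean above the dotted line, and the points of mouse 1 lie to the left for Tfrc, Loxl2 and Slc16a3.

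Of the 36 HIF targets with a mean of at least 200, 6 were called variable, beside 8.00% of all such genes. Slc2a1, the glucose transporter GLUT1, had 277, 415 and 383 normalized counts, and the lactate exporter gene Slc16a3 had 127, 332 and 262. Both were lowest in mouse 1, with mice 2 and 3 nearer to each other. Tfrc, the transferrin receptor, had 146, 353 and 286. The collagen crosslinking enzymes Lox and Loxl2 had 243, 300 and 456, and 181, 350 and 289. Each of the 6 was thus lowest in mouse 1. Of all 36, mouse 1 was the lowest for 19 and the highest for 10, against 31.8% and 37.6% of all genes of that level. Without mouse 1, 2 of 35 were called (Vegfa and Lox, with 4.84% of all genes), so most of these calls rest on that mouse. Of 7 fibroblast markers with such a mean, 5 were called. Among those called, Lum (458, 309 and 618) and Dcn (813, 579 and 1007) were lowest in mouse 2. Of the 7 markers, 5 were lowest in mouse 1, not all of them called. The median log2 ratio of mouse 1 to the mean of mice 2 and 3 was -0.40 over these 7, -0.33 over the 3 mural markers of that level and -0.30 for the 1 leukocyte marker of that level, against -0.09 over the 36 HIF targets, and the part of this in the levels of the HIF targets was not tested.

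HIF dimers bind the core letters ACGTG or GCGTG. Both were searched on both strands in the 250 bases before and 50 bases after the canonical start of each gene, and the position of a match is that of its first base relative to the start. CACGTG holds ACGTG on both strands and counts as 2 matches. The starts are those of the GENCODE annotation used here and can lie apart from the deposited gene span. For Egln1 the start was 125676865, outside a span that ends at 125676063. For Arnt it was 95341365, before a span that begins at 95341699. For Hif1a it was 73954570, inside a span that begins at 73948149. Of the 10 genes, 8 held at least 1 match, all but Hif1an and Vhl, against 58.9% of 14230 listed protein-coding genes and 73.7% of the 38 HIF targets. ACGTG was held by 6 of the 10 (60%), against 24.9% of listed protein-coding genes and 57.9% of the HIF targets. GCGTG was held by 4 of the 10 (40%), against 46.9% and 52.6%. The windows below are shown for the genes that the levels turn on, which are the leading alpha subunits, the leading hydroxylase, the gene called variable and Bnip3, and each holds the upstream ACGTG nearest to the start or, for Epas1, which has none, GCGTG. They are from GRCm39, 5′ to 3′ on the strand of the gene, with the core letters in capitals. CACGT and CACGC are the cores as read from the other strand. No window overlaps an annotated exon on the strand of its gene, and exons on the opposite strand were not checked. The match is to letters only, and no binding was measured.
Epas1, chr17:87060972-87061012, plus strand, match at -133: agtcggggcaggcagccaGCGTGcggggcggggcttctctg
Hif1a, chr12:73954489-73954529, plus strand, match at -63: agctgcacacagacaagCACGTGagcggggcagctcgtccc
Egln1, chr8:125677011-125677051, minus strand, match at -168: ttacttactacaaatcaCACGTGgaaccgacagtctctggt
Egln3, chr12:54250867-54250907, minus strand, match at -216: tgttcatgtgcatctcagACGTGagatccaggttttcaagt
Bnip3, chr7:138511320-138511360, minus strand, match at -89: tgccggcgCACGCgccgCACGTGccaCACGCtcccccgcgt
The number of matches in the searched region was 6 for Egln2, 5 for Bnip3, 3 for Hif1a, 2 for Egln1 and for Hif3a, and 1 for Epas1, Arnt and Egln3.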

How the data were processed

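RNA bound to tagged ribosomes of 3 mice was analysed. According to the study's methods and the processing notes, the authors used Trimmomatic 0.39 for trimming and STAR 2.7.11a for alignment to mm39, removed duplicates with Picard 3.1.1 and also multi-mapping, ribosomal and mitochondrial reads, counted reads in exons on the correct strand with featureCounts 2.0.4, leaving out reads that overlap several genes, and normalized with DESeq2 1.36.0. The deposited unit is recorded as a score, since the values are counts that the authors divided by a size factor and rounded to whole numbers. No count model was therefore run. Every gene listed reached a value of 4 in at least 1 mouse. No column belongs to another sample.

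The rest was computed here. Members and lists were chosen with earlier results of these data known. Levels are the mean and SD over mice of the deposited values. Levels per kb use the Ensembl canonical transcript of GENCODE vM39 on GRCm39, which is newer than the authors' annotation and gave a length for 99.4% of the genes. A symbol carried by more than 1 identifier (Aldoa) was read from the identifier that GENCODE gives that name. Ratios were taken within mice with a pseudocount of 0.5 and tested with a two-sided exact sign-flip permutation test, adjusted by Benjamini-Hochberg over 19 pairs. These include the neighbours in the order of levels, which were picked from the same data. The worth of 1 read was estimated from the pattern of whole numbers between 5 and 120, an estimate tested on simulated data, and counting errors derived from it cover counting only. Exact copies of 72-base windows were searched with BLAST 2.17.0. Named genes are the 10 members, Bnip3l, of each pathway list the 3 highest and 2 lowest per kb, those called variable and those not listed, and the 3 genes nearest to Epas1, Hif1a and Egln1. Alternatives were other scalings, lengths, pseudocounts, thresholds and leaving out each mouse. Those added after seeing the data were division by the bases within the deposited gene span, by windows without a copy, the correction for duplicate removal (minus the natural log of 1 minus reads per base within that span) and the count of variable HIF targets without each mouse. The genome sequence is GRCm39. Protein sequences were not used here. Values of 3 genes of the lists are not reported here, though the counts over those lists include them. Python 3.11.15, numpy 2.4.6, pandas 2.3.3, pysam 0.24.0 and matplotlib 3.10.9 were used.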

Additional observations from a re-analysis of the deposited data

How the results depend on the processing

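No paired analysis was possible because all 3 mice belong to a single group. The mean log2 ratios of Epas1 to Hif1a, Egln1 to Egln2, Egln1 to Egln3 and Bnip3 to Bnip3l kept their sign under each alternative, but not their size. Epas1 to Hif1a ranged from 1.35 to 2.10. It was 1.83 with the correction for duplicate removal, which uses only the bases within the deposited span, against 1.35 with those bases uncorrected. Epas1 to Egln1 also stayed positive, from 0.15 with windows without a copy to 1.45 with all annotated exons. Egln1 to Egln2 reached 1.15 without division by length and 0.95 with all annotated exons. Egln1 to Egln3 was 0.33 with all annotated exons, where the mice no longer had the same sign (exact sign-flip p = 0.5). Bnip3 to Bnip3l was -0.08 with windows without a copy (exact sign-flip p = 0.5), -0.50 with the bases in the deposited span, -0.60 with the correction and -1.02 with all annotated exons. The ratio of Hif1a to Arnt turned to 0.49 with all annotated exons, 0.33 without division by length, 0.18 with the bases in the deposited span or with windows without a copy, and 0.21 with the correction for duplicate removal. That of Egln3 to Hif1a turned to -1.31 without division by length, and to -0.45, -0.43 and -0.51 with the span, the windows and the correction. That of Hif1an to Bnip3 turned to -0.39 with all annotated exons, and to -0.80, -1.70 and -0.89 under the same 3 settings. All annotated exons also turned Egln2 to Egln3 (-0.62), Egln2 to Vhl (-0.49) and Arnt to Egln3 (-0.82), and leaving out length turned Vhl to Arnt (-0.48). The length settings differ from each other only in the length used. When 1 mouse was left out, the ratio of Egln3 to Hif1a lay between -0.063 (without mouse 3) and 0.12, and that of Arnt to Egln3 between -0.021 (without mouse 1) and 0.31.

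The number of HIF pathway genes called variable ranged from 0 (without mouse 1) to 2 (without mouse 3) when 1 mouse was left out, and was 1 with a CV over 15%, with a mean of at least 100 and with either other scaling. Over all genes the number was 749, against 1399 with a CV over 15%, 1273 with a mean of at least 100 and 455 without mouse 1. The number of HIF targets above the 75th percentile stayed between 15 and 21. Ranked only among protein-coding genes with a mean of at least 10, Arnt lay at the 69.9 percentile, Hif1a at 64.7, Bnip3 at 48.7 and Hif3a at 2.02. With all annotated exons, Egln2 fell from the 95.0 to the 80.2 percentile, and Egln3 rose from 74.3 to 90.6. At the depth of these libraries, counting error was below the spread between mice for all 10 genes but Bnip3. The sign-flip test used here cannot pass 0.05 with 3 mice.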

Other observations

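HIF target genes outside the naming rule, chosen here after their values were seen, fell into groups by function. Among those for secreted vascular factors, Pdgfb, the ligand that recruits mural cells, had 2086, 2026 and 2017 normalized counts, and Apln, the ligand apelin of sprouting endothelium, had 1555, 2174 and 2025. Per kb both were high, with 656 ± 12.0 for Pdgfb and 599.8 ± 101 for Apln (SD, n = 3), and Apln was lowest in mouse 1. The vasodilator gene Adm had 553, 587 and 560, the vasoconstrictor gene Edn1 had 498, 479 and 546, and Angpt2, the TIE2 ligand of tip cells, had 483, 538 and 594. Adm was the least variable of these 3, with a CV of 3.17%. The chemokine receptor gene Cxcr4 had 772, 603 and 549 and was highest in mouse 1, the reverse of Apln.

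Among stress and metabolic targets, Ddit4, an inhibitor of mTORC1 signalling, had 970, 1086 and 958 normalized counts, and Ndrg1 had 1734, 1562 and 1577. Pdk1, the kinase that closes the entry of pyruvate into mitochondria, had 703, 697 and 660, with a CV of 3.39%. The collagen prolyl hydroxylase genes P4ha1 and P4ha2, which like the EGLN enzymes need oxygen, had 955, 1300 and 1103, and 655, 827 and 690. Both were lowest in mouse 1 and highest in mouse 2. None of the genes in these paragraphs met the rule for a variable gene with all 3 mice, though Apln and P4ha1 did without mouse 3 and Cxcr4 did without mouse 2.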
